A study of Rattus norvegicus with 4 samples.

Results

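The carriers that bring organic anions, bile salts and some organic cations from blood into the liver cell were compared between lean and obese WNIN/Ob rats. The 9 genes chosen were Slco1a1, Slco1a4, Slco1b2, Slco2b1 and Slco2a1 of the organic anion transporting polypeptides (OATPs), the bile salt carrier Slc10a1, and Slc22a7, Slc22a8 and Ust5r of the SLC22 family. A gene entered when a probe set, the group of probes that reports 1 transcript, carried its symbol and no other. That held for 8 of the 9, out of 14506 genes measured in this way, and each of the 8 had 1 probe set. The only listed probe set with the symbol of Slco1a1 also carries that of Slco1a5, so neither gene has a value here. None of the measured members is a classical organic cation transporter.

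WNIN/Ob is a rat strain in which obese animals arise beside lean ones. Livers came from untreated male rats 4 months old, kept on stock diet, and the lean and obese groups share strain, sex, age and diet. RNA of 4 lean animals formed the lean pool and RNA of 4 obese animals the obese pool, and each pool was read on 2 Affymetrix rat gene arrays, which are named original and technical replicate. With 1 pool per phenotype there is no replicate check across animals and no p-value. Each standard deviation (SD) below covers the 2 arrays of a pool, and each range in parentheses covers the 4 pairings of a lean with an obese array.

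Uptake carriers sit on the blood-facing membrane of hepatocytes. OATPs work without sodium and take up steroid conjugates, thyroid hormones, bilirubin and many drugs, and the organic anion transporters of the SLC22 family exchange anions, whereas Slc10a1 couples the return of conjugated bile salts to sodium entry. What they take up is then bound, conjugated and sent by ATP-driven pumps into bile or back into blood.

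Of the 8 measured members 3 were lower by a factor of at least 2 in the obese pool, namely Slco1a4, Slc22a8 and Ust5r, and 0 were higher. The rule asked for a 2-fold difference of the pool means, a gap of at least 0.5 log2 units between the nearest arrays of the pools, and a level in the higher pool at or above the median of all genes, 5.48 on the log2 intensity scale. By the same rule 1.48% of all genes were lower and 0.572% higher. A smaller rule of 1.5-fold with a gap of 0.25 named the same 3 members and added none, against 2.43% of all genes lower and 2.19% higher. The members were chosen with earlier results of these data known, so their counts beside these shares describe the pools only. All 8 members reached the level filter, below which no gene could pass. Of the 7555 genes that reached it, 215 were lower and 83 higher at 2-fold. At 1.5-fold 352 of them were lower and 317 higher. The 8 members had a median difference, obese minus lean, of -0.18 on the log2 scale. The median was 0.03 over all genes and 0.08 over the 7555 genes at the level filter.

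**Figure D1:**
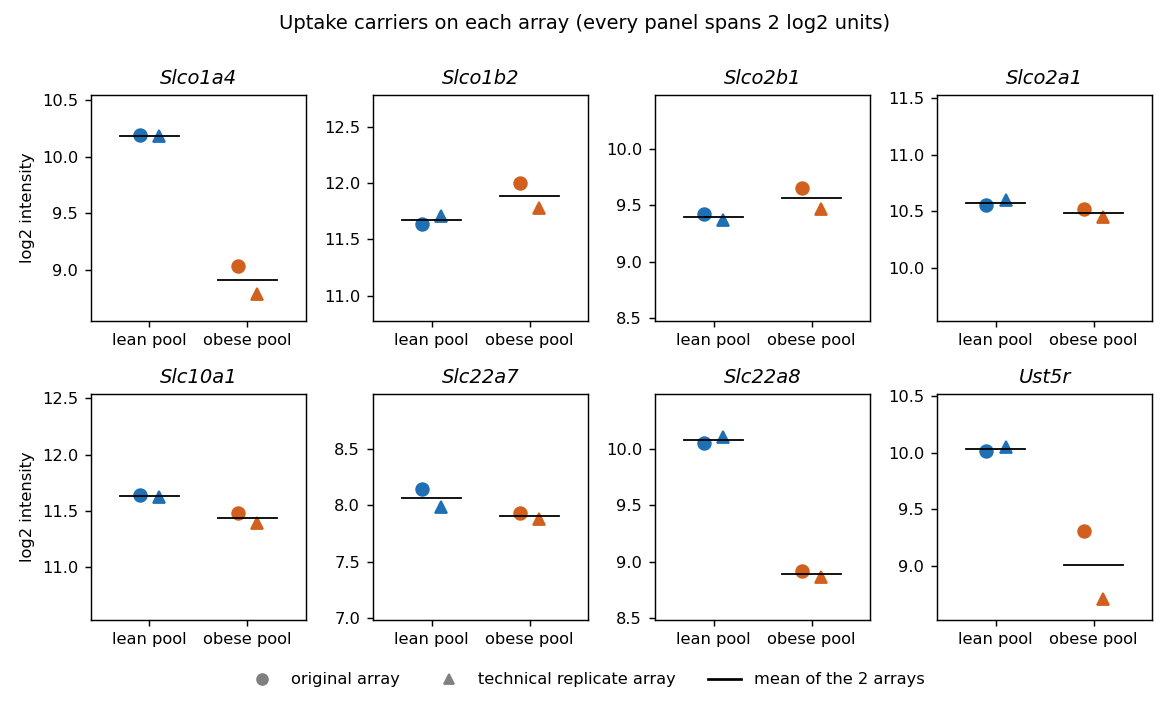
Log2 intensity of the 8 measured carriers on each array, 1 panel per gene; circles are original arrays, triangles technical replicate arrays, bars the mean of 2 arrays, blue the lean and orange the obese pool. Slco1a4, Slc22a8 and Ust5r lie between 10.02 and 10.19 on the lean arrays and between 8.70 and 9.31 on the obese arrays, while the other 5 genes differ by -0.26 to 0.36 log2 units over the 4 array pairs.

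The lean pool also carried RNA of skeletal muscle. All 19 measured skeletal muscle markers passed the 2-fold rule downward, and their summed intensity, on the linear scale, was 36897 to 38339 on the lean and 602 to 627 on the obese arrays. No muscle marker was listed at 0, and 16 of the 19 had obese means below the filter; Myl1, Tnnt3, Myh1 and Myot, parts of the contractile fibre, had the largest differences, between -7.07 and -6.33. Of 12 hepatocyte markers 0 passed the 1.5-fold rule, their median difference was 0.08, and their summed intensity was 88430 to 91910 on the lean and 96275 to 96368 on the obese arrays. Albumin (Alb), the main plasma protein made by hepatocytes, differed by a factor of 1.05 (0.999 to 1.11). The part of muscle RNA in the carrier differences was not tested. In pooled tissue RNA, fewer cells of a type and less RNA per cell cannot be told apart.

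Slco1a4, an OATP for bile salts, cardiac glycosides and steroid conjugates, read 10.19 and 10.18 on the lean arrays and 9.03 and 8.78 on the obese arrays. Both obese values lie more than 1 log2 unit below both lean values. The pool means were 10.19 ± 0.01 and 8.91 ± 0.18 (SD, n = 2 arrays each), which makes the gene 2.43-fold lower in the obese pool (2.22 to 2.66). Its difference of -1.28 held place 188 from the lowest among the 14506 genes.

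Slc22a8, an exchanger of organic anions for dicarboxylates that is best known from the kidney, read 10.05 and 10.10 on the lean and 8.92 and 8.86 on the obese arrays. Its obese values, too, lie more than 1 log2 unit below both lean values. The means of 10.08 ± 0.03 and 8.89 ± 0.04 make it 2.28-fold lower in the obese pool (2.20 to 2.36), at place 207.

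Ust5r, a carrier-like protein of the SLC22 family, read 10.02 and 10.05 on the lean arrays and 9.31 and 8.70 on the obese arrays. The obese arrays lay 0.60 apart, the widest spacing among the members. The mean difference was -1.03, a factor of 2.04 (1.64 to 2.54), and place 246. Without the obese technical replicate array the difference was -0.73, which passes the 1.5-fold rule only. The 8 members were all brighter on the original than on the technical replicate array of the obese pool, as were 76.6% of the genes at the level filter.

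The remaining 5 members differed by factors of 1.06 to 1.16. Slco1b2, the liver-restricted OATP that takes up bilirubin and statins, read 11.63 and 11.71 on the lean arrays and 12.00 and 11.77 on the obese arrays. Its nearest arrays were 0.07 apart, and the obese mean was the higher one by a factor of 1.16 (1.05 to 1.29). Slco2b1, an OATP for steroid sulphates, read 9.42 and 9.37 on the lean and 9.65 and 9.47 on the obese arrays. It was 1.12-fold higher (1.03 to 1.22), and the nearest arrays of the pools were 0.05 apart.

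Slc10a1, the sodium-coupled bile salt carrier, read 11.64 and 11.63 on the lean arrays and 11.49 and 11.39 on the obese arrays. Both obese values were lower, by a factor of 1.14 between the means (1.10 to 1.19). Slc22a7, a carrier of small organic anions and nucleotides, read 8.14 and 7.99 on the lean and 7.93 and 7.88 on the obese arrays, 1.12-fold lower (1.04 to 1.20). The prostaglandin carrier Slco2a1 read 10.55 and 10.60 on the lean and 10.52 and 10.45 on the obese arrays, 1.06-fold lower (1.02 to 1.11).

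The arrays of the pools did not overlap for any of the 8 members, 6 being lower and 2 higher in the obese pool. Over all genes 46% did not overlap, 18.5% being lower and 27.5% higher. Of the 7555 genes at the level filter, which all 8 members reached, 4390 did not overlap. For these 5 members the separation was between 0.03 and 0.14 log2 units. In Slc10a1 that separation, 0.14, was wider than the spacing of the 2 arrays of either pool, at most 0.09. In Slco1b2, Slco2b1, Slco2a1 and Slc22a7 it was narrower than the wider of the spacings within a pool, which were 0.22, 0.19, 0.07 and 0.16.

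**Figure D2:**
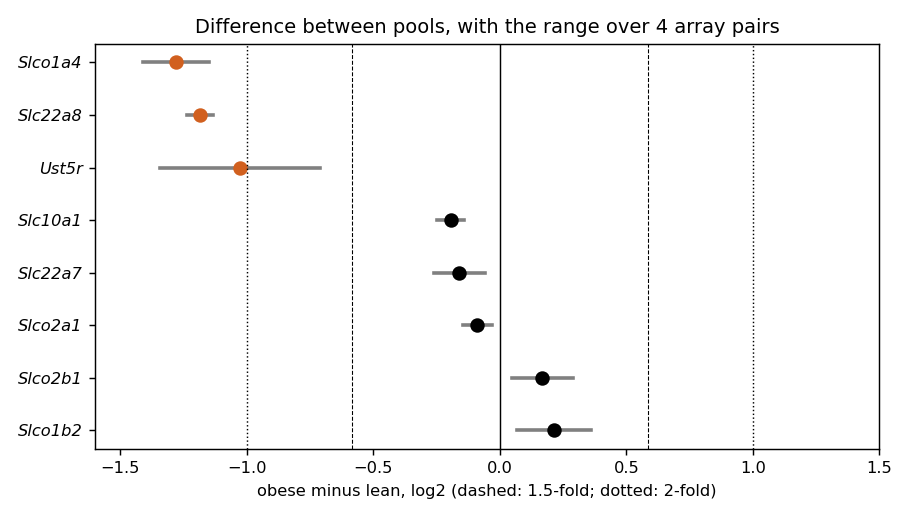
Difference between pools, obese minus lean on the log2 scale, for the 8 measured carriers; points are differences of the pool means, lines span the 4 array pairs, and orange marks the genes past the 2-fold rule. Slco1a4, Slc22a8 and Ust5r lie at -1.28, -1.19 and -1.03, and the other 5 genes between -0.19 and 0.21.

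Slco2a1 is made by endothelium and macrophages as well as other cells, so markers of these cells were set beside it. Of 7 endothelial markers 0 passed the 1.5-fold rule; all 7 had differences below 0, with a median of -0.13 and a summed intensity of 1471 to 1476 on the lean and 1186 to 1290 on the obese arrays. Of 10 macrophage markers 0 passed, all 10 were below 0 with a median of -0.24, and the sums were 3318 to 3522 and 2731 to 3062. Bile duct markers had a median of 0.04, with 0 of 6 past the rule. Only 1 of the 6 reached the level filter, so the other 5 could not pass and the count says little about bile duct cells. Of 10 stellate cell markers 3 were lower by the rule, Des, Dcn and Col1a1, at -4.05, -1.90 and -0.97. The sums were 2414 to 2533 on the lean and 1328 to 1423 on the obese arrays. Lum, with a lean mean of 4.47, an obese mean of 2.37 and a difference of -2.11, was below the filter and could not pass. Des, whose obese mean of 5.19 lay below the filter, is also 1 of the 19 skeletal muscle markers. Without it 2 of 9 stellate cell markers were lower, the median was -0.34, and the sums were 1859 to 1869 and 1288 to 1390. No marker of these lists was listed at 0, and the part of these cell types in the carrier differences was not tested.

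The genes of the lower members lie among relatives in the genome. In the order of the RefSeq gene table, Ust5r and Slc22a8 belong to a row of 5 SLC22 genes on chromosome 1. The row, picked by symbol, runs Slc22a24, Ust5r, Slc22a25, Slc22a8 and Slc22a6. Its span holds 7 protein-coding genes, and those with other symbols were not read. The 3 relatives were below the level filter in both pools: Slc22a24 had means of 3.15 and 3.72, Slc22a25 of 4.66 and 4.61, and Slc22a6 of 3.81 and 4.09. No relative in that row therefore has a level from which a fold could be read. In that table the span of Slc22a25 covers Slc22a8, so they overlap as annotated.

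Slco1a4 lies on chromosome 4 in a row of 7 OATP genes, which runs Slco1c1, Slco1b2, Slco1a4, Slco1a1, Slco1a3, Slco1a6 and Slco1a5. Slco1b2, its neighbour in the row, was the member with the highest difference, 0.21, and Slco1a4 the member with the lowest. Slco1c1, Slco1a3 and Slco1a6 were below the level filter on both pools, with lean means of 2.97, 2.57 and 2.90. The OATPs of this row are close relatives in sequence, and how far probes of 1 gene also read another was not tested.

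**Figure D3:**
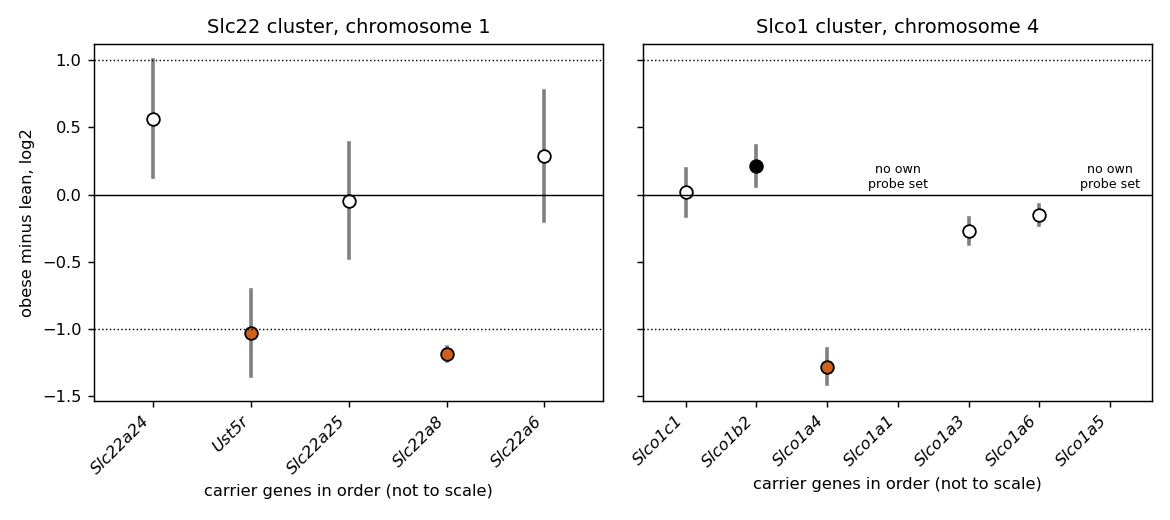
Difference between pools, obese minus lean on the log2 scale, for the SLC22 genes of chromosome 1 and the OATP genes of chromosome 4, in RefSeq order and not to scale; lines span the 4 array pairs, open points are genes below the level filter in both pools, and orange marks the genes past the 2-fold rule. Ust5r and Slc22a8 at -1.03 and -1.19 stand beside dim relatives, and Slco1a4 at -1.28 stands beside Slco1b2 at 0.21.

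The 250 bases before the start of each of the 3 lower genes are shown, with those of Slco1b2 as the neighbour of Slco1a4 that was not lower. They are from RefSeq, build GRCr8, written 5′ to 3′ on the strand of the gene. Capitals mark matches, on either strand, to any of 6 short motifs, whose letters follow the sequences, and no matches overlap in these windows.
Slco1a4, chr4:176495847-176496096, - strand: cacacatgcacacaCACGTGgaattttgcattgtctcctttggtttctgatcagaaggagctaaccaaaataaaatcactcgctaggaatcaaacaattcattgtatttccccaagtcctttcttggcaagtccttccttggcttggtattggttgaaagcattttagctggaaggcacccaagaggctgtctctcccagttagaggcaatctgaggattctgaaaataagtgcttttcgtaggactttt
Slc22a8, chr1:214927034-214927283, + strand: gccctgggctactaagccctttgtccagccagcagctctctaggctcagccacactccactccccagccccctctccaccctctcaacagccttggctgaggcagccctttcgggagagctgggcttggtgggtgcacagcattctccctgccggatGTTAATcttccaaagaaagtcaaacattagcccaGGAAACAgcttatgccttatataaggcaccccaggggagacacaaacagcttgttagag
Ust5r, chr1:214715535-214715784, - strand: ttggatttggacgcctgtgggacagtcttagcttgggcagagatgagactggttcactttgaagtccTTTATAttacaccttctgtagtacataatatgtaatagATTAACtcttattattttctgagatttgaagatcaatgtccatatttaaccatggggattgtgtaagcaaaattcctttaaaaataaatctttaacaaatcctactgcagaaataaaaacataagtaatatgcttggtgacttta
Slco1b2, chr4:176282334-176282583, + strand: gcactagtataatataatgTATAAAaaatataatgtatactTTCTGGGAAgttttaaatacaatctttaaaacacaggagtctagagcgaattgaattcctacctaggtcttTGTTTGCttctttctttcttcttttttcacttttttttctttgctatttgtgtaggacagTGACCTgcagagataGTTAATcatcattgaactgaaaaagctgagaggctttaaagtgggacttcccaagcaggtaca

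GTTAAT, part of the site of the liver factor HNF1, stood in 4 of the 9 members' windows, those of Slc22a8, Ust5r, Slco1b2 and Slc10a1, and in 6.45% of all 33469 windows of that length in the table. In Slc22a8 it began at -93 and in Slco1b2 at -63 from the start, and Ust5r had the reverse complement at -145. AGGTCA, an element of nuclear receptor sites, stood in 2 members' windows, Slco1b2 and Slc10a1, and in 14.1% of all. The STAT site TTCNNNGAA stood in Slco1b2 and Slco2b1 and in 7.67% of all. The forkhead core TGTTTNC stood in Slc22a8 and Slco1b2 and in 18.3% of all. The letters TATAAA, searched for the TATA box, stood in Ust5r, Slco1b2 and Slco2a1 and in 12.9% of all. They began at -231 in Slco1b2 and at -72 in Slco2a1, and Ust5r had the reverse complement at -183. The search set no position, and other TATA-like strings were not searched. The E-box CACGTG stood in Slco1a4 alone among the members and in 5.59% of all. No motif of the 6 stood in all 3 lower genes, and their windows had a G+C content of 42.4% in Slco1a4, 56% in Slc22a8 and 32.8% in Ust5r, against a median of 51.2%. A match is a string of letters and does not show a bound factor.

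Relatives outside the member list were mostly dim. Of the 9 measured genes on the list of other OATPs, which does not hold Slco1a3, 1 reached the level filter, Slco3a1, a widely expressed OATP, which read 5.57 and 5.86 on the lean and 4.63 and 4.85 on the obese arrays. It passed the 1.5-fold rule at a factor of 1.96 (1.64 to 2.34), with an obese level below the filter, so the factor has no firm size. Slco1a6 read 2.85 and 2.96 on the lean and 2.77 and 2.73 on the obese arrays. Of 12 other SLC22 genes 2 reached the filter and 0 passed the 1.5-fold rule, with a median of 0.00. Of 6 other SLC10 genes 3 reached the filter and 0 passed, with a median of 0.15.

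Of 13 measured genes on the list of exporters, 0 were lower and 1 was higher by the 1.5-fold rule. The median difference was -0.04. Only 9 of the 13 reached the level filter, and the others could not pass. Abcb11, the bile salt export pump, had a lean mean of 11.19 ± 0.01 and an obese mean of 11.15 ± 0.14, and Abcc2, the canalicular pump for conjugates, 10.13 ± 0.01 and 10.07 ± 0.07. Abcb1b, a P-glycoprotein that expels bulky drugs, read 5.43 and 5.47 on the lean arrays and 7.51 and 7.04 on the obese arrays. Its lean level lay just below the filter, so the factor of 3.54 (2.97 to 4.22) has no firm size. Slc47a1, an exporter of organic cations, lay below the filter in both pools, at 4.13 and 3.62.

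Transcription factors and receptors known from carrier genes gave 2 lower and 0 higher of 17 by the 1.5-fold rule, with a median of 0.07. Nr1i3, the nuclear receptor that senses foreign compounds, read 7.97 and 8.01 on the lean and 7.03 and 6.85 on the obese arrays, 2.07-fold lower (1.91 to 2.24). Ahr, the receptor for dioxin-like compounds, read 7.66 and 7.68 against 7.28 and 6.87, 1.51-fold lower (1.30 to 1.75). Hnf4a, Nr1h4 and Nr1i2 were among the 15 that did not pass.

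Of 10 genes that bind or conjugate carrier substrates inside the cell 1 was lower and 1 higher by the 1.5-fold rule, with a median of 0.17. Slc27a5, which activates bile acids for conjugation, read 10.90 and 10.87 on the lean and 10.14 and 10.17 on the obese arrays, 1.65-fold lower (1.62 to 1.68). Gsta3, a glutathione transferase, read 6.17 and 5.95 against 7.77 and 7.34, 2.82-fold higher (2.25 to 3.52). Of 6 membrane scaffold genes 0 passed, with a median of -0.06.

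Expression of several carriers in rat liver differs between the sexes and along the lobule, so lists for both were read. Of 8 male-biased genes 5 were lower by the 1.5-fold rule and 0 higher, with a median of -0.86. The steroid hydroxylases Cyp3a18 and Cyp3a2 had differences of -2.92 and -2.16, carbonic anhydrase Car3 one of -1.03 and the hydroxylase Cyp2a2 one of -0.97. Of 5 female-biased genes 2 were higher, the prolactin receptor Prlr at 1.82, from a lean level below the filter, and the hydroxylase Cyp2a1 at 0.60, and 1 was lower, the oxidase Hao2 at -1.10. Of 9 pericentral genes 1 was lower, the glutamate carrier Slc1a2 at -0.89, with a list median of -0.14. Of 9 periportal genes 1 was lower, the serine dehydratase Sds at -0.93, with a median of 0.16. These lists were chosen with earlier results of these data known and describe the pools only.

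**Figure D4:**
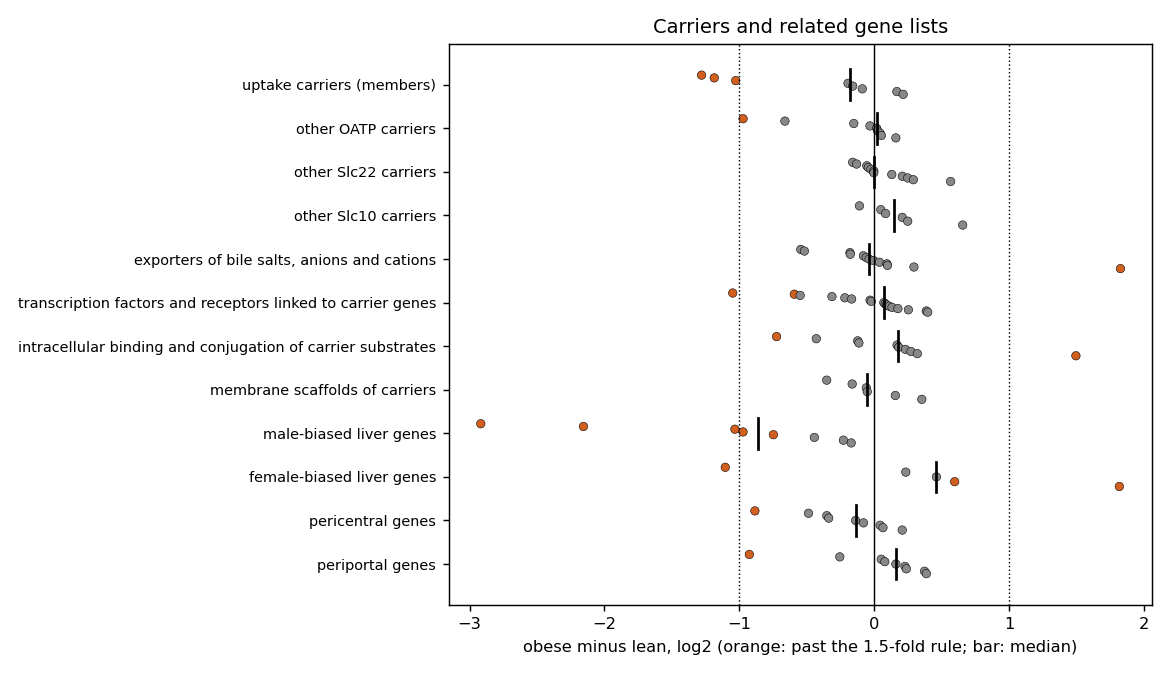
Difference between pools, obese minus lean on the log2 scale, for each measured gene of the carriers and of 11 related lists; orange points passed the 1.5-fold rule and bars are list medians. The carriers show 3 genes apart from the other 5, and the male-biased list has the lowest median, -0.86.

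The genes most like the lower members over the 4 arrays were found by the Euclidean distance between log2 values, each gene centred on its own mean, among 7544 genes at the level filter. Nearest to Slco1a4 were Grb10 (0.11), Igfbp1 (0.11) and Plpp7 (0.12), and nearest to Slc22a8 were Grb10 (0.08), Srpx (0.09) and Klf9 (0.09). Nearest to Ust5r were Wls, Glyatl2 and Sult1c3, at 0.19, 0.19 and 0.20. With 4 arrays of 2 pools such nearness says that the differences are of like size, from -1.21 to -0.84 for these genes. The obese levels of Grb10, Plpp7 and Srpx lay below the filter.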

How the data were processed

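Total liver RNA of 2 pools was amplified from 100 ng and hybridised to 4 arrays. Each array has 1 deposited intensity for every probe set, linear in scale, which the authors computed by RMA, per the submitters' processing notes; software version, genome build and the return to a linear scale are not given in the sources used here. Very dim and very bright array values can be compressed, so folds there may understate differences, which was not tested. The log2 was taken here and no further normalisation was applied. Of 29214 probe sets 15310 carried 1 symbol in the platform annotation; the probe set with the highest mean stood for a gene. Detection calls were not used here, so presence above background was not assessed. Array medians were 4.69 to 4.79 on the log2 scale, and the number of arrays limits the precision.

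Groups came from the phenotype in the labels. Members and gene lists were chosen with earlier results of these data known. Named genes are all members, up to 4 genes per list past the 1.5-fold rule, several fixed relatives and, for each member past that rule, the 3 nearest genes. Counting by the 2-fold rule was tested on simulated data, with 3-fold changes in genes well above the filter and a common spread. The 1.5-fold rule, changes in dim genes and uneven array spacing were not tested in this way. Alternatives were each array left out, original or technical replicate arrays alone, quantile, cyclic loess (limma 3.58.1) and median centring, an offset of 16, the mean of probe sets, no level filter, no gap and differences relative to the median of all genes. Python 3.11.15 and R 4.3.3 were used. Promoter windows were matched by symbol, 9 of 9 members.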

Additional observations from a re-analysis of the deposited data

How the results depend on the processing

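The 3 members that were 1.5-fold lower, Slco1a4, Slc22a8 and Ust5r, were called under all alternatives run, and 0 members were higher under any. At 2-fold the count was 3, or 2 with the original arrays alone, and 2 to 3 when an array was left out; the lost member was Ust5r, at -0.71 on the original arrays and -0.73 with the obese technical replicate left out. Over the members the median of -0.18 was -0.26 with cyclic loess and -0.22 to -0.14 when an array was left out; the cause was not tested. The differences of the 8 members kept their sign under 12 alternatives each, with Slco1a4 between -1.41 and -1.16, Slc22a8 between -1.27 and -1.14, Ust5r between -1.35 and -0.71, Slco1b2 between 0.07 and 0.36 and Slco2b1 between 0.07 and 0.26. Several of these outcomes were fixed in advance. No member had overlapping arrays, so leaving out arrays, using original or technical replicate arrays alone, or adding an offset could not reverse a sign. Dropping the level filter or the gap could not lose a called member. Each member has 1 probe set, so averaging probe sets could not move its value. Differences relative to the median of all genes were an alternative chosen after seeing the data. These are limits of measurement only: differences between animals are not covered. No paired analysis was possible because each phenotype is 1 pool and the labels number no pairs.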

Other observations

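The probe set that carries the symbols of Slco1a1 and Slco1a5 together read 7.58 and 7.51 on the lean arrays and 7.43 and 7.14 on the obese arrays, a difference of -0.25. It cannot be assigned to either gene.

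Among 330 measured genes with Slc or Slco symbols, Ust5r included, 6 were 2-fold lower and 5 higher in the obese pool. By the same rule 1.48% of all genes were lower and 0.572% higher. Of the 6 lower, 3 were the uptake carriers Slco1a4, Slc22a8 and Ust5r, members chosen with earlier results of these data known. The other Slc genes are named here after their values were seen. Slc25a4, the adenine nucleotide carrier of muscle mitochondria, read 10.32 and 10.42 on the lean and 6.04 and 6.15 on the obese arrays. Slc2a4, the insulin-responsive glucose carrier of muscle and fat, had means of 6.78 and 4.10, and Slc9a7, a sodium-proton exchanger, of 5.59 and 3.96. The obese means of Slc2a4 and Slc9a7 lay below the level filter, so the size of their differences is not firm. The part of muscle RNA in these lower genes was not tested. Among the higher genes the fructose carrier Slc2a5 had a lean mean of 7.77 and an obese mean of 9.48, a factor of 3.28 (2.97 to 3.62). The zinc carrier Slc39a4 was 2.75-fold higher (2.64 to 2.87) and the phosphate carrier Slc34a2 2.52-fold (2.29 to 2.76). The citrate carrier Slc13a2 and the urea carrier Slc14a1 were higher from lean levels of 4.49 and 4.24, below the level filter, so their factors of 2.08 and 2.76 have no firm size.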
